A study of Homo sapiens with 6 samples.

Results

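The ERK pathway feedback genes are 10 genes that ERK, the last kinase of the RAS, RAF and MEK cascade, switches on and whose products mostly restrain that cascade. They comprise 3 MAPK phosphatase genes (DUSP4, DUSP5, DUSP6), 3 Sprouty genes (SPRY1, SPRY2, SPRY4), 2 SPRED genes (SPRED1, SPRED2) and 2 ETS transcription factor genes of the PEA3 group (ETV4, ETV5). They were taken by symbol, and the list was chosen with earlier results of these data known. All 10 were found among the 18417 genes with a named probe set, each with a single probe set. Expression was measured on 6 Affymetrix arrays. A673 and SK-N-MC are established cell lines of Ewing sarcoma, a bone and soft tissue tumour of the young whose hallmark is a fusion between EWSR1 and a gene of the ETS family. Cells of each line received an siRNA against DKK2 (siDKK2_1), an siRNA against ITM2A (siITM2A_7 in A673 and siITM2A_1 in SK-N-MC, by the labels) or a control siRNA, with 1 array for each line and siRNA. Whether both lines received the same ITM2A oligonucleotide cannot be told from these names.

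ERK carries signals from growth factor receptors to the nucleus, where it drives proliferation. Among the genes it induces are its own brakes: the DUSP phosphatases remove phosphate from ERK and related kinases, Sprouty proteins act between receptors and RAF, and SPRED proteins bring neurofibromin to RAS to switch it off. ETV4 and ETV5 are induced by the same pathway and carry its signal on to other genes. A673 is known to carry the activating mutation BRAF V600E. Mutant BRAF of this kind signals without RAS, so the brakes that act on RAS or above it do not stop it, and high levels of feedback genes are a known mark of BRAF-mutant melanoma. The comparison asks whether the same genes mark A673 among these arrays. BRAF itself was not analysed here and each line stands only for itself, so BRAF status and every other difference between A673 and SK-N-MC cannot be told apart.

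Values are log2 intensities after RMA, and the medians of the 6 arrays lay between 3.35 and 3.44. Against the control array of its line, siDKK2 left 53.0% of the DKK2 signal in A673 cells and 35.1% in SK-N-MC cells. For ITM2A with siITM2A, 8.86% was left in A673 cells and 9.55% in SK-N-MC cells. The 8 measured Ewing sarcoma markers ranged from 5.13 to 10.73 in A673 and from 5.11 to 9.85 in SK-N-MC. Their mean was 7.49 to 7.60 per A673 array and 7.41 to 7.56 per SK-N-MC array. In A673, 3 of the 8 were called higher and 3 lower (all genes: 13.8% and 14.7%). The mean of 5 melanocyte markers was 2.67 to 2.78 per A673 array and 2.76 to 2.90 per SK-N-MC array. Of these, of 5 epithelial and of 3 blood cell markers, 0 passed the test between the lines, and the 3 blood markers ranged from 1.97 to 2.67 in A673 and from 1.90 to 3.00 in SK-N-MC. KRT8 and KRT18, listed as epithelial, were above the median of their arrays in both lines. In bulk samples, fewer cells of a type and less RNA per cell cannot be told apart.

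Of the feedback genes, 8 of 10 were higher in A673 than in SK-N-MC and none was lower (limma over all genes, Benjamini-Hochberg adjusted p under 0.05). Over all 18417 genes, 13.8% were called higher in A673 and 14.7% lower. The median difference of the 10 genes was 1.82 on the log2 scale, against -0.02 over all genes. In 9 of the 10, every A673 array lay above every SK-N-MC array, which was so for 18.1% of all genes. DUSP6, SPRY2, SPRY4, SPRED2, ETV4 and ETV5 were at least 2-fold higher in A673 with each of the 3 siRNAs, 6 of 10 genes against 3.25% of all genes. SPRY1 and SPRED1 did not pass. As the list was chosen with earlier results of these data known, these shares describe it and are not a test of it. The 3 arrays of a line received different siRNAs and nothing says that cultures were repeated, so these p-values measure how even the line difference was across siRNAs. An exact permutation test of 3 arrays against 3 cannot go below p = 0.1 (two-sided).

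**Figure D1:**
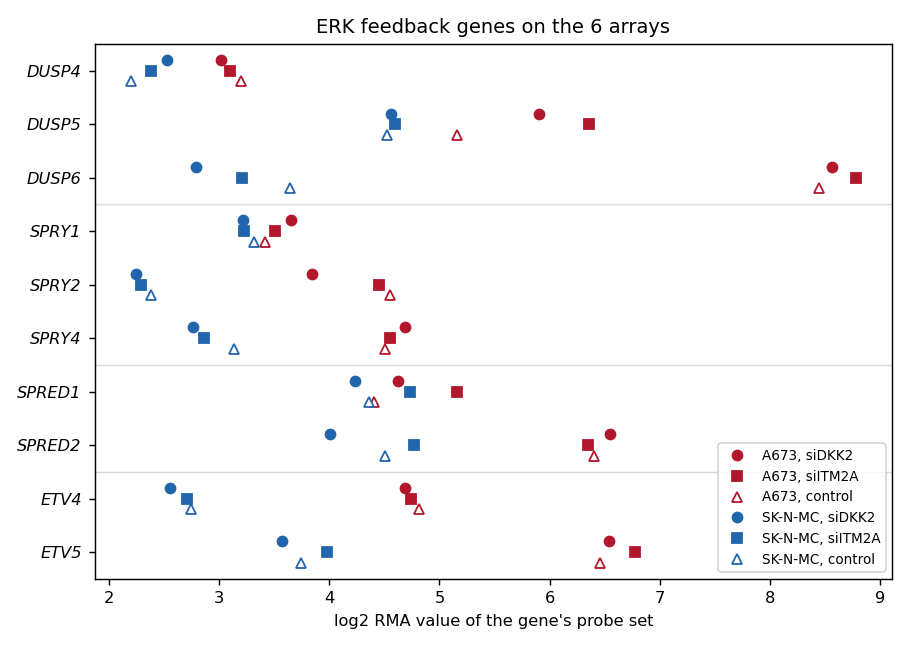
Log2 RMA values (x axis) of the 10 ERK feedback genes (y axis, grouped as phosphatases, Sprouty, SPRED and ETS genes) on each array, with A673 in red, SK-N-MC in blue and a symbol for each siRNA. DUSP6 lies between 8.44 and 8.78 in A673 and between 2.79 and 3.64 in SK-N-MC, while the SPRED1 values of the lines overlap; levels of different genes come from different probes and are not comparable.

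Among the phosphatases, DUSP6 showed the widest gap of the 10 genes. It encodes a cytoplasmic phosphatase that acts selectively on ERK. DUSP6 (probe set 7965335) had log2 values of 8.56 with siDKK2, 8.78 with siITM2A and 8.44 with control siRNA in A673, against 2.79, 3.21 and 3.64 with the same siRNAs in SK-N-MC. The lowest A673 value was thus 4.81 above the highest SK-N-MC value. DUSP6 averaged 8.59 ± 0.17 in A673 and 3.21 ± 0.42 in SK-N-MC (SD, n = 3 arrays each). The fitted difference was 5.38 ± 0.18 (SE; adjusted p = 3.34e-07), a 41.8-fold higher level in A673, and among all genes it ranked 7 from the top of those higher in A673. On the A673 arrays DUSP6 stood at percentiles 96.7 to 97.7 of all named genes, and on the SK-N-MC arrays at 29.5 to 45.7. Background was not measured, so a fold against values this low may understate the difference.

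DUSP5 and DUSP4 were higher in A673 by much less. DUSP5 (probe set 7930413), which encodes an ERK phosphatase of the nucleus, had values of 5.90 with siDKK2, 6.36 with siITM2A and 5.16 with control siRNA in A673, against 4.56, 4.6 and 4.52 in SK-N-MC. Its SK-N-MC values were nearly level, and its A673 values differed more among siRNAs (SD of 0.61 over the A673 arrays, against 0.04 over the SK-N-MC arrays). The fitted difference was 1.25 ± 0.19 (adjusted p = 0.00133), with 0.64 within the control siRNA and 1.76 within siITM2A. DUSP4 (probe set 8150076), which encodes a nuclear phosphatase of ERK and JNK, had values of 3.02, 3.10 and 3.20 with siDKK2, siITM2A and control siRNA in A673, against 2.53, 2.38 and 2.20 in SK-N-MC. The groups did not overlap, and the difference was 0.73 ± 0.13 (adjusted p = 0.00244). DUSP4 was dim in both lines, at percentiles 35.7 to 37.7 in A673 and 10.8 to 22.5 in SK-N-MC, where its values lay within the 1.90 to 3.00 of the blood cell markers, so its difference may be understated too.

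Of the Sprouty genes SPRY2 and SPRY4 passed and SPRY1 did not. SPRY2 (probe set 7972217), an inhibitor of receptor tyrosine kinase signalling, had values of 3.84 with siDKK2, 4.45 with siITM2A and 4.55 with control siRNA in A673, against 2.25, 2.29 and 2.38 in SK-N-MC. It was higher in A673 by 1.98 ± 0.14 (adjusted p = 1.81e-05), 3.93-fold. Its SK-N-MC values lay within the 1.90 to 3.00 of the blood cell markers in that line and were not shown to be above background, so the fold may understate the difference. SPRY4 (probe set 8114797), which also holds back RAS and RAF activation, had values of 4.69, 4.55 and 4.51 in A673 in the same order of siRNAs, against 2.76, 2.86 and 3.14 in SK-N-MC. It was higher in A673 by 1.67 ± 0.13 (adjusted p = 3.32e-05), 3.18-fold, and 2 of its 3 SK-N-MC values also lay within that range. SPRY1 (probe set 8097282) had values of 3.65, 3.51 and 3.42 in A673, against 3.22, 3.23 and 3.32 in SK-N-MC. The SPRY1 groups did not overlap but lay 0.09 apart at the nearest arrays, and its difference of 0.27 ± 0.11 did not pass (adjusted p = 0.124). SPRY1 lay above the range of the blood cell markers but was dim, at percentiles 41.3 to 45.9 in A673 and 38.4 to 40.9 in SK-N-MC. Its difference may thus be understated too.

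Of the SPRED genes, which encode paralogous RAS inhibitors, SPRED2 passed and SPRED1 did not. SPRED2 (probe set 8052689) had values of 6.55 with siDKK2, 6.35 with siITM2A and 6.40 with control siRNA in A673, against 4.01, 4.77 and 4.51 in SK-N-MC. It was higher in A673 by 2.01 ± 0.17 (adjusted p = 5.78e-05), 4.02-fold. SPRED1 (probe set 7982564), whose loss in the germline causes Legius syndrome, had values of 4.62, 5.16 and 4.41 in A673, against 4.23, 4.73 and 4.36 in SK-N-MC. This was the only one of the 10 genes whose lines overlapped. The difference of 0.29 ± 0.12 did not pass (adjusted p = 0.108), and within the control siRNA it was 0.05.

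ETV4 and ETV5 encode transcription factors that carry the ERK signal to other genes, and both were higher in A673 with every siRNA. ETV4 (probe set 8015806) had values of 4.69 with siDKK2, 4.74 with siITM2A and 4.81 with control siRNA in A673, against 2.56, 2.71 and 2.75 in SK-N-MC. Its difference was 2.14, 2.02 and 2.07 within siDKK2, siITM2A and control siRNA, and 2.08 ± 0.10 in the fit (adjusted p = 2.85e-06), 4.21-fold. All 3 SK-N-MC values of ETV4 lay within the range of the blood cell markers, so this fold too may understate the difference. ETV5 (probe set 8092578) had values of 6.54, 6.77 and 6.46 in A673, against 3.57, 3.98 and 3.74 in SK-N-MC. ETV5 had the second largest difference of the 10 genes, 2.83 ± 0.11 (adjusted p = 6.80e-07), 7.11-fold.

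**Figure D2:**
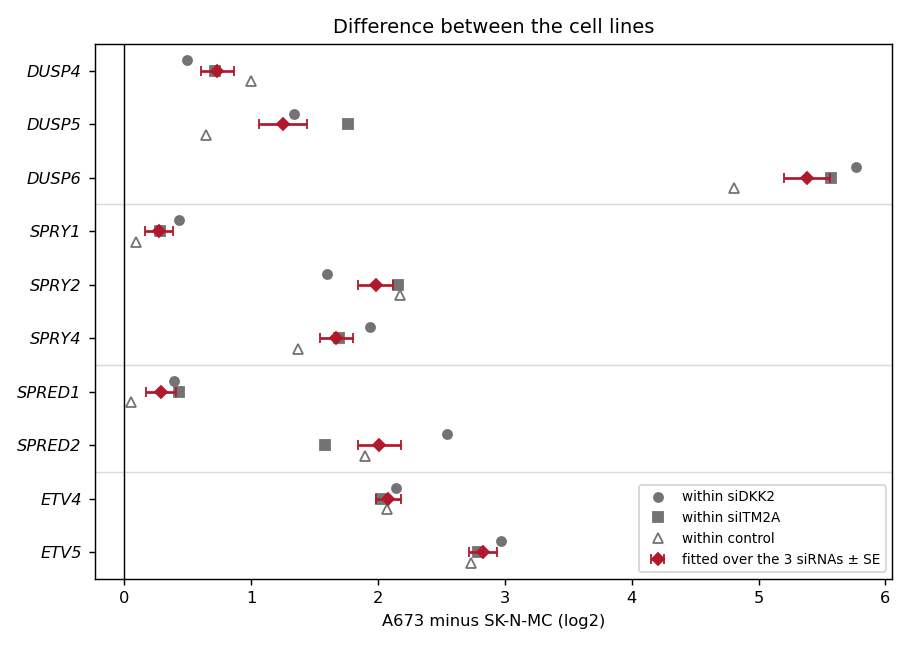
Difference between the lines, A673 minus SK-N-MC in log2 units (x axis), for each gene (y axis); grey symbols are the differences within 1 siRNA and red diamonds the fitted difference with its SE over the 3 siRNAs. All 10 genes lie above 0, from 0.27 for SPRY1 to 5.38 for DUSP6.

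The stretches of 250 bases before the transcript start are shown for the gene with the widest line difference, DUSP6, and for the paralogs SPRED2, which passed, and SPRED1, which did not. For SPRED2 the outermost start was taken. They come from a table of RefSeq promoters (GRCh38.p14), in which 6 of the 10 genes were matched, with 10 entries in all. Capitals mark GGAA, the core recognised by ETS factors, or its reverse complement.
DUSP6, chr12:89352502-89352751, minus strand: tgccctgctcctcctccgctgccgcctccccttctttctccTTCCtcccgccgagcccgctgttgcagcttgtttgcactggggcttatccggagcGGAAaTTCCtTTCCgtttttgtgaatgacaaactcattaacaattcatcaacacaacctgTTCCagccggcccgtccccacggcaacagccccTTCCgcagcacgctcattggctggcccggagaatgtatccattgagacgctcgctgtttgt
SPRED2, chr2:65432600-65432849, minus strand: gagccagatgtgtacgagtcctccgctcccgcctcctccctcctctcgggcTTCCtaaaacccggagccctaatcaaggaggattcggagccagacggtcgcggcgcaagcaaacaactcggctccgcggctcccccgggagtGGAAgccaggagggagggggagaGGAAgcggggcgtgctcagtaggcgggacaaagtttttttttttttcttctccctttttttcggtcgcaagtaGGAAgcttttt
SPRED1, chr15:38252586-38252835, plus strand: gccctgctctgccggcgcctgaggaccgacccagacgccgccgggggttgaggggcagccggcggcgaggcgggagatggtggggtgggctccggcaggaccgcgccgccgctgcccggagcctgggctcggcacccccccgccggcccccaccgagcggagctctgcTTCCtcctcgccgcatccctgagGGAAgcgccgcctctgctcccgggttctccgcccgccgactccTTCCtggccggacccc
GGAA was found on either strand 6 times before DUSP6, 4 times before SPRED2 and 3 times before SPRED1. The other SPRED2 entry held 5. Of the genes not shown, SPRY4, which passed, had 2, and the SPRY2 entries 3, 4 and 4. The entries of SPRY1, which did not pass, had 5 and 4, more than that of SPRY4. DUSP4, DUSP5, ETV4 and ETV5, which passed, had no matched entry. Whether the counts follow the line differences was not tested. GGAA is common: 92.7% of 35116 promoter windows of this length held it, with a median of 3 matches. The longer ETS site CCGGAAGT, which contains that core, was in 3.42% of all windows, the cyclic AMP response element TGACGTCA in 1.65% and the AP-1 site TGANTCA in 6.57%. None of these 3 was in any of the 10 windows of the feedback genes, on either strand. A match is a description of letters and not of binding.

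By the root mean square difference of centred log2 values over the 6 arrays, the genes nearest to DUSP6 among 3062 non-member genes that ranged over at least 1 log2 unit were GNG12 (0.2), CSRP1 (0.294) and DCC (0.329). GNG12 encodes a G protein gamma subunit, CSRP1 a LIM domain protein and DCC a netrin receptor. GNG12 (probe set 7916843) had values of 7.61, 7.95 and 7.37 with siDKK2, siITM2A and control siRNA in A673, against 2.23, 2.63 and 2.63 in SK-N-MC. Among the 10 genes the nearest pairs were SPRED2 with ETV4 (0.198) and SPRY2 with ETV4 (0.201). All 3 genes nearest to DUSP6 were also higher in A673, by 4.89 to 5.81 in the fit, against 5.38 for DUSP6. For a gene with so wide a line difference, this measure mostly picks genes whose line difference is of similar size.

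None of the feedback genes passed the test in any siRNA comparison. With siDKK2 against control siRNA 0 of 10 passed (limma; 1 at an unadjusted p under 0.05), against 0.0109% of all genes. With siITM2A against control siRNA 0 of 10 passed (2 unadjusted; 0.0109% of all genes), and with siDKK2 against siITM2A also 0 of 10 (2 unadjusted; 0.0163% of all genes). The fitted differences ranged from -0.42 to 0.39, from -0.12 to 0.64 and from -0.52 to 0.06 in these 3 comparisons. The first 2 share the control arrays and are not separate evidence. Each siRNA effect rests on 2 lines, and a line by itself has no replicate, so the values within a line are given without a test. On simulated data the fit of siDKK2 against control recovered 3.2% of changes of 0.5 and 81.6% of changes of 1 (log2). A gene that did not pass is thus not shown to be unchanged.

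SPRY2 had the lowest fitted value with siDKK2, -0.42 ± 0.17 (adjusted p = 0.545). The A673 arrays gave -0.71 and the SK-N-MC arrays, where it was dim, gave -0.13. DUSP5 had the highest fitted value with siITM2A, 0.64 ± 0.23 (adjusted p = 0.707), from 1.2 on the A673 arrays and 0.08 on the SK-N-MC arrays. In A673, DUSP5 was also 0.74 above control with siDKK2. SPRED1 with siITM2A was above control by 0.75 on the A673 array and by 0.37 on the SK-N-MC array, 0.56 ± 0.14 in the fit (adjusted p = 0.661). Set against siITM2A, SPRED1 with siDKK2 gave -0.53 on the A673 arrays and -0.50 on the SK-N-MC arrays, -0.52 ± 0.14 in the fit (adjusted p = 0.42). ETV5 differed by -0.32 ± 0.13 between siDKK2 and siITM2A (adjusted p = 0.573).

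Within single lines, few feedback genes were at least 1.5-fold from their comparison array. With siDKK2 against control they were DUSP5 and SPRY2 in A673 (2 of 10; 5.03% of all genes) and DUSP6 in SK-N-MC (1 of 10; 2.89%). With siITM2A against control they were DUSP5 and SPRED1 in A673 (2 of 10; 3.28%) and none in SK-N-MC (0 of 10; 2.87%). With siDKK2 against siITM2A they were SPRY2 in A673 (1 of 10; 4.01%) and SPRED2 in SK-N-MC (1 of 10; 3.18%). With siDKK2, 7 genes were above control and 3 below it in A673 (median 0.13), while in SK-N-MC 2 were above and 8 below (median -0.15). DUSP6 was among these, with 0.11 on the A673 array and -0.85 on the SK-N-MC array. With siITM2A, 6 were above control and 4 below it in A673 (median 0.07), and 5 above and 5 below in SK-N-MC (median 0.02). With siDKK2 against siITM2A, 3 were above and 7 below in A673 (median -0.15), and 1 was above and 9 below in SK-N-MC (median -0.13). These 9 ranged from -0.76 for SPRED2 to -0.02 for SPRY1. Medians over all genes lay between -0.04 and 0.0 in all these comparisons. The members' median absolute difference from control was 0.18 in each line with siDKK2, where all genes had 0.17 on the A673 arrays and 0.15 on the SK-N-MC arrays. For siITM2A it was 0.10 in A673, against 0.15 over all genes, and 0.21 in SK-N-MC, against 0.15 over all genes. Between siDKK2 and siITM2A it was 0.21 in A673, against 0.16 over all genes, and 0.15 in SK-N-MC, as over all genes.

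**Figure D3:**
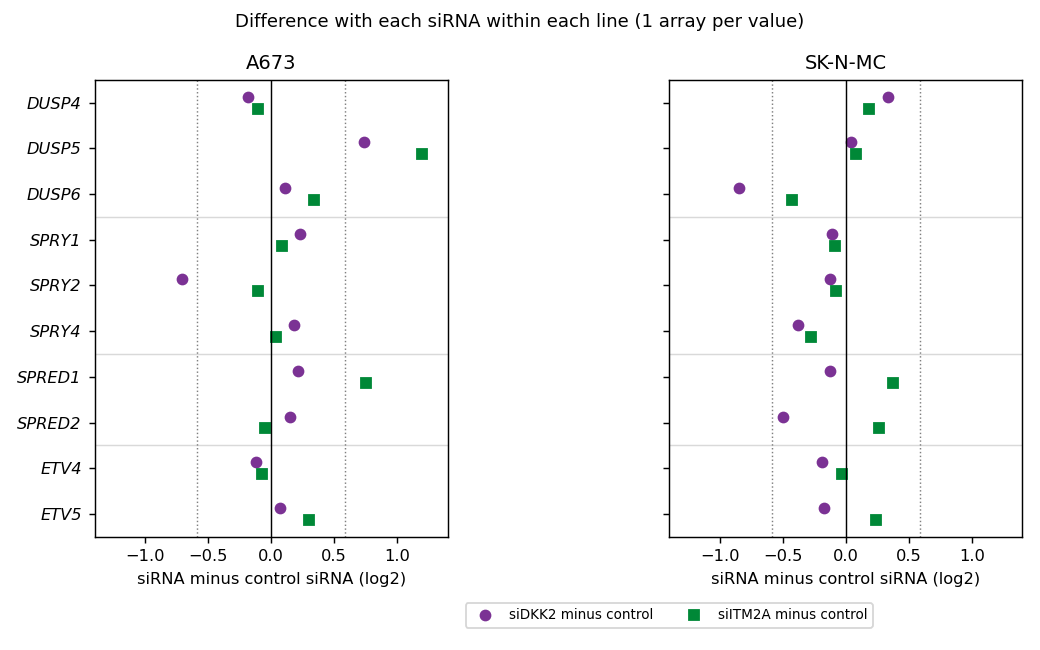
Difference from the control siRNA in log2 units (x axis) for each feedback gene (y axis) with siDKK2 (circles) and siITM2A (squares), in A673 (left) and SK-N-MC (right), 1 array per value; dotted lines mark 1.5-fold. DUSP5 in A673 reaches 1.2 with siITM2A, and DUSP6 in SK-N-MC is at -0.85 with siDKK2.

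Among other genes known to be induced by ERK, more were higher than lower in A673. Of 14 measured, 7 were higher in A673, 2 were lower and 5 did not pass, with a median difference of 0.65. CCND1 (1.23 ± 0.14) is counted among those higher here and also among the Ewing sarcoma markers called higher. Over all genes 13.8% were called higher and 14.7% lower. This list too was chosen with earlier results of these data known. HBEGF, which encodes a ligand of the EGF receptor, stood at 6.05 with siDKK2, 7.38 with siITM2A and 7.56 with control siRNA in A673, against 3.13, 3.30 and 3.27 in SK-N-MC (3.77 ± 0.23, adjusted p = 9.13e-06). The transcription factor gene EGR1 was higher in A673 by 3.13 ± 0.14 (adjusted p = 1.41e-06), the ephrin receptor gene EPHA2 by 2.62 ± 0.11 (adjusted p = 1.23e-06) and the stress-response gene IER3 by 2.39 ± 0.19 (adjusted p = 3.59e-05). The 2 that were lower in A673 were EPHA4 (-1.49 ± 0.20) and MYC (-1.05 ± 0.11).

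The genes of the cascade itself showed no common direction. Among receptor tyrosine kinases 2 of 16 were higher in A673 and 6 lower (all genes: 13.8% and 14.7%), with a median of -0.03. KIT differed by -1.95 ± 0.26, INSR by -1.81 ± 0.16, FGFR3 by -1.38 ± 0.17 and ERBB2 by -0.77 ± 0.12, all lower in A673. Of 11 adaptor and RAS family genes 1 was higher, RRAS (0.99 ± 0.11), and 1 lower, RRAS2 (-0.47 ± 0.14). Of 11 genes for RAF, MEK, ERK, their kinase targets and scaffolds 4 were higher and 2 lower. RPS6KA2, which encodes a ribosomal S6 kinase activated by ERK, led them with 6.85, 6.11 and 6.56 in A673, against 2.97, 3.35 and 3.35 in SK-N-MC (3.29 ± 0.19, adjusted p = 6.35e-06).

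Other restraints on the pathway had no common direction either. Of 11 further negative regulators 3 were higher in A673 and 3 lower (all genes: 13.8% and 14.7%). PEA15, which holds ERK in the cytoplasm, was higher by 2.38 ± 0.17, the ubiquitin ligase gene CBL by 1.22 ± 0.13 and the EGF receptor inhibitor gene ERRFI1 by 0.84 ± 0.14. DUSP7, which like DUSP6 encodes a cytoplasmic ERK phosphatase, was lower in A673 at -1.35 ± 0.11 (adjusted p = 4.43e-05). Of the 5 other MAPK phosphatase genes 0 were higher and 1, DUSP2, was lower (-1.07 ± 0.10). Among 8 other ETS factor genes 3 were higher and 1 lower. ETV1, the third gene of the PEA3 group, stood at 5.92, 6.29 and 6.16 in A673, against 2.28, 2.56 and 2.76 in SK-N-MC, a difference of 3.59 ± 0.11 (adjusted p = 2.63e-07). ETS1 differed by 3.59 ± 0.21 and ELK3 by 1.81 ± 0.15, both higher in A673, and ELK1 by -0.86 ± 0.12.

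**Figure D4:**
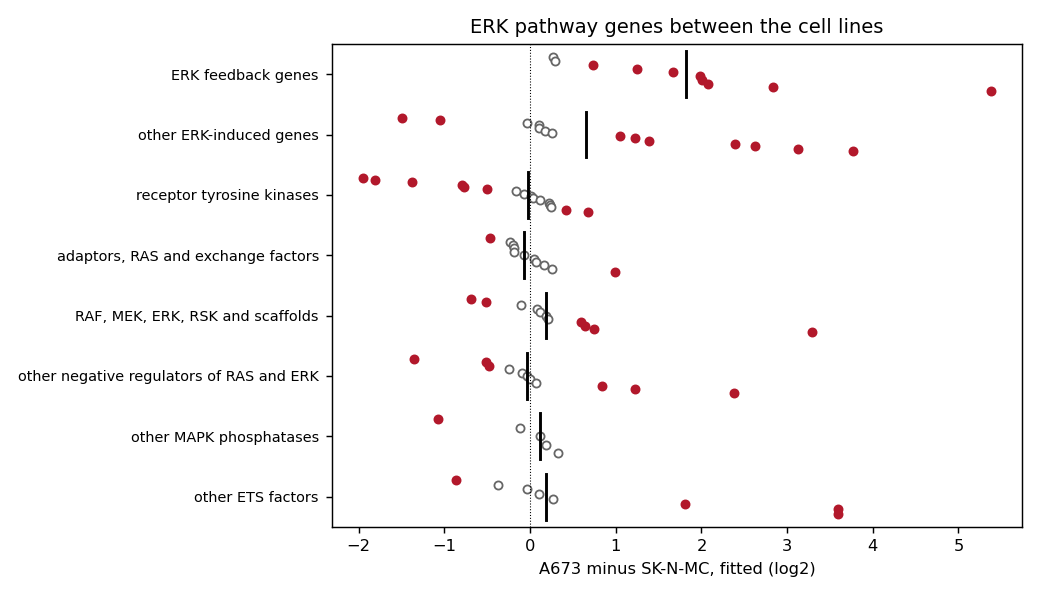
Fitted difference A673 minus SK-N-MC in log2 units (x axis) of every measured gene in 8 groups of ERK pathway genes (y axis); filled red points passed at an adjusted p under 0.05, open points did not, and black bars are group medians. The feedback genes have a median of 1.82, other ERK-induced genes 0.65, and receptor tyrosine kinases -0.03.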

How the data were processed

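RNA of siRNA-treated A673 and SK-N-MC cells was hybridised to 6 Affymetrix arrays. Per the submitters' processing notes the authors used Affymetrix Expression Console and RMA. The deposited values range from 1.02 to 13.4, which is the log2 scale that RMA gives. Its version, settings and the genome build were not stated in those notes. RMA compresses differences of dim probe sets, and with no scanner files used here the signal over background is unknown. The number of arrays limits the precision.

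Probe sets with 1 symbol were named (19460 of 33297), and the one with the highest mean was kept per gene. Differences were tested in R 4.3.3 with limma 3.58.1 (lmFit, eBayes) over 18417 genes, with siRNA and cell line as terms and 2 residual degrees of freedom (8.28 after moderation). By the labels, arrays of 1 line form a block across siRNAs. Benjamini-Hochberg adjustment ran over all genes, with a threshold of 0.05. The fit was first tested on simulated data.

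Genes named besides the 10 are up to 4 per list that passed between the lines, by the size of their smallest difference within an siRNA, the 3 genes most like DUSP6, and EPHA4, MYC, KRT8 and KRT18, chosen after their values were seen. The members and lists were chosen with earlier results of these data known. Of 118 listed genes 13 were not analysed here. Alternatives were no block, intensity trend or robust moderation, averaged probe sets, a filter on dim genes, median centring, other folds and each array left out.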

Additional observations from a re-analysis of the deposited data

Results flagged for a closer look

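DUSP6 differed in direction between the lines with siITM2A against control siRNA: by 0.34 in A673 and by -0.43 in SK-N-MC, each at least 1.2-fold. DUSP6 was singled out because the only array of each line moved the opposite way, and the difference between the lines was not tested. By the labels the siRNA was siITM2A_7 in A673 and siITM2A_1 in SK-N-MC, so line and siRNA name cannot be told apart here. How many of all genes would be flagged was not counted. SK-N-MC values of DUSP6 were low, 3.21 with siITM2A and 3.64 with control siRNA.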

How the results depend on the processing

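All 10 line differences kept their direction and their side of the threshold under 10 or 11 alternatives each, from 5.19 to 5.67 for DUSP6, 0.60 to 0.86 for DUSP4 (highest adjusted p = 0.0259) and 0.22 to 0.41 for SPRED1 (lowest adjusted p = 0.0535). These alternatives are not all separate checks. Dropping the block, an intensity trend, robust moderation and the filter leave a member's estimate as it was and alter only its SE or adjusted p. Averaging probe sets leaves it too, as each member has 1 probe set. Leaving out the A673 or the SK-N-MC array of an siRNA gave the same line difference. The 8 members called became 4 with the filter at the median level, which only 5 of the 10 pass. Of all genes, 9209 pass this filter and 4472 of them were called in either direction, against 5256 of 18417 without it. Centring arrays on their medians left 9 members without overlap. The share of all genes after centring was not counted, and without centring it was 18.1%. All genes called between the lines numbered 3729 to 5400 over the alternatives, against 5256. No member passed an siRNA comparison under any alternative run. SPRY2 with siDKK2 against control ranged from -0.70 to -0.13 and DUSP5 with siITM2A against control from 0.18 to 1.09. Over all genes, dropping the replicate block by line left 0 calls in each siRNA comparison. For siDKK2 against control (2 calls) an intensity trend gave 7, and leaving out an array 0 to 60: 60 without SK-N-MC siDKK2, 45 without SK-N-MC control, and 0 without A673 siDKK2 or either siITM2A array. For siITM2A against control (2 calls) it was 0 to 4: 4 without SK-N-MC control and 0 without either siITM2A array. For siDKK2 against siITM2A (3 calls) an intensity trend gave 16, the filter 6, and leaving out an array 1 to 50: 50 without SK-N-MC siDKK2, 18 without either control array and 1 without either siITM2A array. Where 1 array of a line is left out, the lone array of that siRNA is assumed to vary like the others. At 2-fold in place of 1.5-fold, DUSP5 with siITM2A in A673 was the 1 member left, and 0 were left in each other comparison within a line. At 1.2-fold, 4 members counted for siITM2A against control in A673, 3 for siDKK2 against siITM2A in A673, and 4 in each of the 3 comparisons in SK-N-MC. The shares of all genes at 1.2-fold and 2-fold were not counted, so these counts are not a result about the members. The cause of these shifts was not tested.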
